A study of Mus musculus with 9 samples.

Results

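The 46 genes described here encode the machinery of mitosis and cytokinesis, and they were followed in cultured mouse heart cells exposed to hypoxia with and without recombinant serglycin. Members were chosen by name, as every row of the count table whose gene symbol equals an entry of the list, and all 46 were found once among 55401 annotated genes. All 46 also passed the filter on low counts that left 16762 genes for testing, and the lowest count of a member in a library was 138. They lie on 16 chromosomes and are all annotated as protein-coding.

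The cells were primary neonatal mouse ventricular myocytes (NMVMs), prepared from wild-type C57BL/6J mice at 1 day of age. The comparison had 3 groups of 3 libraries. Control cultures stayed at normal oxygen in complete medium, which was DMEM with 10% FBS. Hypoxia cultures were moved to DMEM without glucose or serum and sealed with an oxygen absorber for 6 h. Hypoxia + rSRGN cultures were treated in the same way, with recombinant serglycin (rSRGN), a secreted proteoglycan of granules, present during the hypoxic period at a dose that the labels do not give. Low oxygen, loss of glucose and loss of serum came together in both hypoxia groups and cannot be told apart. The labels do not say whether libraries of a group came from separate isolations, so the p-values below measure the spread between these samples, which may be technical.

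A dividing cell enters mitosis when Cdk1 binds A-type or B-type cyclins and is dephosphorylated by Cdc25. Chromosomes then condense, kinetochores attach to the spindle under watch of the spindle checkpoint, and the anaphase-promoting complex (APC/C) with Cdc20 marks securin and cyclin B for destruction so that sister chromatids part. The midzone and the contractile ring finally split the cytoplasm. Transcripts of most of these genes are low in resting cells and climb from late interphase to mitosis under the factors B-Myb and Foxm1. Heart muscle cells of the mouse leave the cell cycle in the first days after birth, while fibroblasts in the same culture can go on dividing.

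Many such promoters carry a cell cycle homology region (CHR, letters TTTGAA), which the MuvB complex binds, downstream of CCAAT boxes, which the factor NF-Y binds. The promoter sequences of 4 members are shown because these members include large and small changes described below and carry such letters in different arrangements. Each line gives the 120 bases before the annotated start of the gene in RefSeq (GRCm38.p6), read 5′ to 3′ on the strand of the gene, with capitals marking TTTGAA or CCAAT on either strand (TTCAAA and ATTGG on the reverse).
Cdk1: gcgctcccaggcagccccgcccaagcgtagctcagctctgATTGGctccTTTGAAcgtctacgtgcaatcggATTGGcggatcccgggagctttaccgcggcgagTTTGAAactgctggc
Ube2c: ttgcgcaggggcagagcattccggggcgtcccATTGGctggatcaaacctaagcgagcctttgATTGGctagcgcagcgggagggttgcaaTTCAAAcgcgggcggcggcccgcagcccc
Cdc20: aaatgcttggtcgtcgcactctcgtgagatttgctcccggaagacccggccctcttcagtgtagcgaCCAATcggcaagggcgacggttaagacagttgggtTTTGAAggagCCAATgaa
Top2a: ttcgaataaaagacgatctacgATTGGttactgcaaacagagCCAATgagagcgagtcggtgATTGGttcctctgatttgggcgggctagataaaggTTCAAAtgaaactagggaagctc
The Cdk1 sequence lies at chr10:69352913-69353032 on the minus strand, the Ube2c sequence at chr2:164769809-164769928 on the plus strand, the Cdc20 sequence at chr4:118437344-118437463 on the minus strand and the Top2a sequence at chr11:99024190-99024309 on the minus strand. In Cdk1, 2 CHR matches start at positions -71 and -15 from the annotated start, and in Ube2c a single match on the reverse strand starts at -29.

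RefSeq promoters, each reaching from 250 bases before to 50 bases after the start, were matched by symbol for 38 of the 46 members and gave 40 windows. TTTGAA on either strand was present in 28 of these 40 windows (70%), against 17.9% of all 32851 mouse promoters of the same length. CCAAT on either strand was present in 30 (75%) against 37.4%, and both letters together in 25 (62.5%) against 6.95%. In the most similar gene lists, CCAAT was present in 67.2% of 64 windows of other periodic mitosis genes and in 66.7% of 36 windows of S-phase genes. TTTGAA was present in 51.6% of the former and in 16.7% of the latter, which is near the share of all promoters. The CHR matches lay close to the start: 26 of the 40 windows (65%) held a match within 50 bases of it, against 4.94% of all promoters, where this distance was chosen after the positions had been seen. The windows of Birc5, Mad2l1, Melk, Ncaph, Nuf2, Nusap1 and Pttg1 held neither motif. The windows of Cdca8, Kif2c, Kif4 and Pttg1 lie wholly inside the gene's span in the annotation used for counting, so their starts there differ. That of Mad2l1 ends before its gene begins there. In 34 of the 40 windows the last 30 bases were found in an annotated transcript of the gene. A match of letters is a description and not a binding site.

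**Figure D1:**
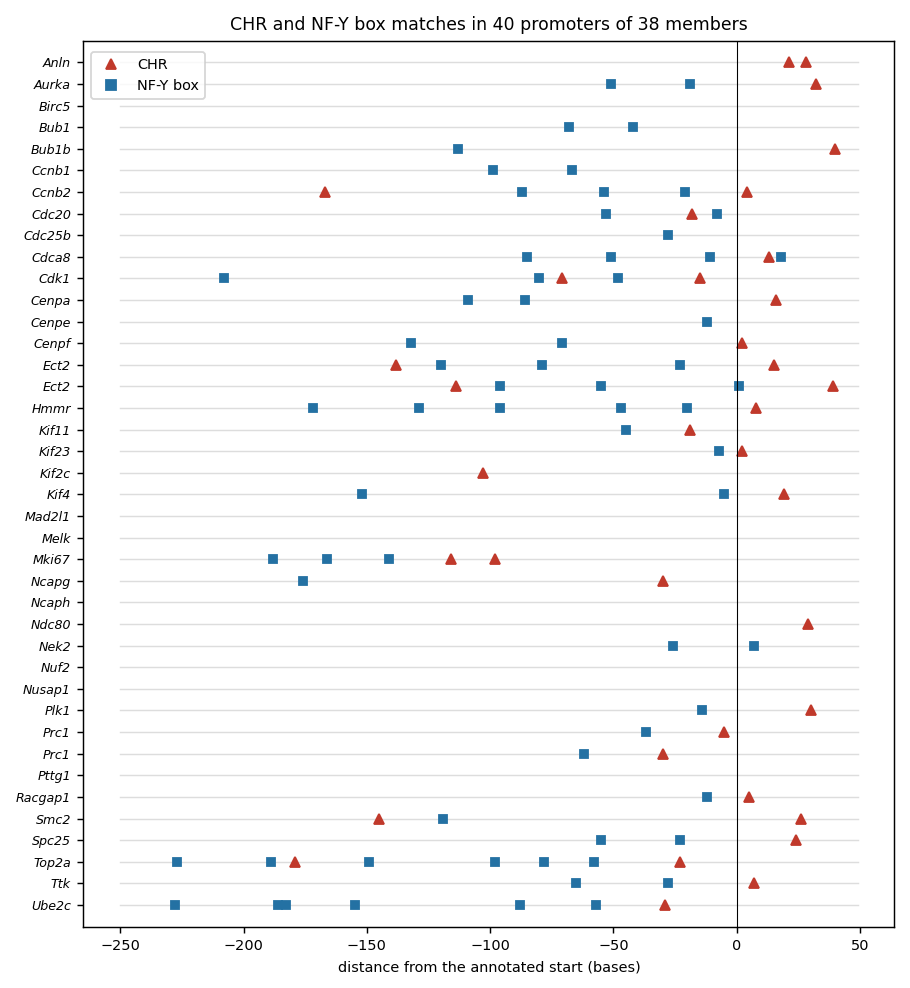
Positions of CHR matches (triangles) and of matches to the CCAAT box that NF-Y binds (squares) on either strand in the 40 promoter windows of 38 members, against distance in bases from the annotated start (0). Triangles gather around 0 in most rows, with squares mainly to their left, and 28 windows hold at least 1 triangle.

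Levels are given in CPM, the usual scale on which a gene's fragment count is divided by the count of all tested genes in its library, after scaling of the libraries with the trimmed mean of M-values (TMM). Total counts ranged from 21669017 to 22781557 in control, from 16583985 to 18148474 in hypoxia and from 16640239 to 20826701 in hypoxia + rSRGN libraries. Every pair of replicates differed by more than counting noise, so none was treated as 1 library deposited again, which does not tell separate cultures from separate preparations. Many marker genes moved strongly with the treatment. The summed level of 14 cardiomyocyte markers was 45940 to 56390 CPM in control, 3953 to 6117 CPM in hypoxia and 7823 to 8393 CPM in hypoxia + rSRGN, and 14 of 14 fell in hypoxia, while 13 of 14 rose with rSRGN against hypoxia (median log2 fold change 0.77). For 12 fibroblast markers the corresponding ranges were 11410 to 13470, 22100 to 24870 and 25080 to 26060 CPM, and 10 of 12 rose in hypoxia. The sums of 11 macrophage markers were 237.8 to 252.8, 25.68 to 28.09 and 30.05 to 37.12 CPM, those of 10 endothelial markers 119.5 to 154.5, 114.3 to 132 and 124.3 to 150.1 CPM, and those of 8 smooth muscle markers 2100 to 2574, 2178 to 2448 and 1923 to 2039 CPM. In hypoxia 10 of 11 macrophage markers fell and none rose, 6 of 10 endothelial markers fell and none rose, and 2 of 8 smooth muscle markers fell and 1 rose. By the same call, defined below, 26.4% of all tested genes rose and 25.1% fell in hypoxia. With rSRGN against hypoxia 2.27% rose. The smooth muscle counts in hypoxia did not exceed these shares. The endothelial sums overlapped although 6 markers fell, since Flt1, the most abundant of them, had means of 39.3 CPM in control and 55.4 CPM in hypoxia. The smooth muscle sums also overlapped, but their genes moved in opposite directions. Des had means of 751.1 CPM in control, 106.4 CPM in hypoxia and 163.2 CPM in hypoxia + rSRGN, so it fell and rose again like the cardiomyocyte markers. Acta2, the most abundant smooth muscle marker, had means of 1386, 2027 and 1646 CPM and was not called in hypoxia. No marker was at 0 in all libraries. In bulk RNA, a change in the share of a cell type and a change in RNA per cell cannot be told apart, and the part of these marker shifts in the results below was not tested.

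In control cultures all 46 members were expressed, and their levels per kilobase of exon ran from 1.43 to 22.1 CPM per kb. The highest level per kilobase was that of Smc4, a condensin subunit, at 22.1 ± 0.56 CPM per kb (SD, n = 3). Pttg1, which encodes securin, followed at 18 ± 1.2 CPM per kb and Cdc20 at 16.8 ± 0.8 CPM per kb, and these neighbours overlapped within their SD. Cdc25c was lowest, with 1.43 ± 0.029 CPM per kb, and the checkpoint kinase gene Ttk was next at 1.79 ± 0.28 CPM per kb. The summed CPM of the members was 1460 to 1596 in control libraries, 2266 to 2340 in hypoxia and 1988 to 2114 in hypoxia + rSRGN, so the 3 groups did not overlap.

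The first comparison asked how the mitotic genes stood after 6 h of hypoxia. Most of them were higher: 27 of 46 rose, 1 (Pttg1) fell and 18 were not called, where a gene was called at a Benjamini-Hochberg adjusted p below 0.05 in edgeR's quasi-likelihood test together with a fold change of at least 1.5. These counts stand against a wide response, since 51.6% of all tested genes were called, 26.4% higher and 25.1% lower. The members were chosen with earlier results of these data known, and the difference between these shares was not tested. The median log2 fold change was 0.71 for the members and 0.05 for all tested genes, and member values ran from -0.71 to 1.42. In 42 members every hypoxia library lay above every control library, which held for 37.7% of all tested genes, and in Pttg1 and Smc2 every hypoxia library lay below, as in 35.3% of all tested genes. Of the 18 members not called, 17 had an adjusted p below 0.05 with a smaller fold change, and only Cenpf did not. Without the fold limit, 43 members were thus higher and 2 lower, against 36.8% and 34.1% of all tested genes.

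**Figure D2:**
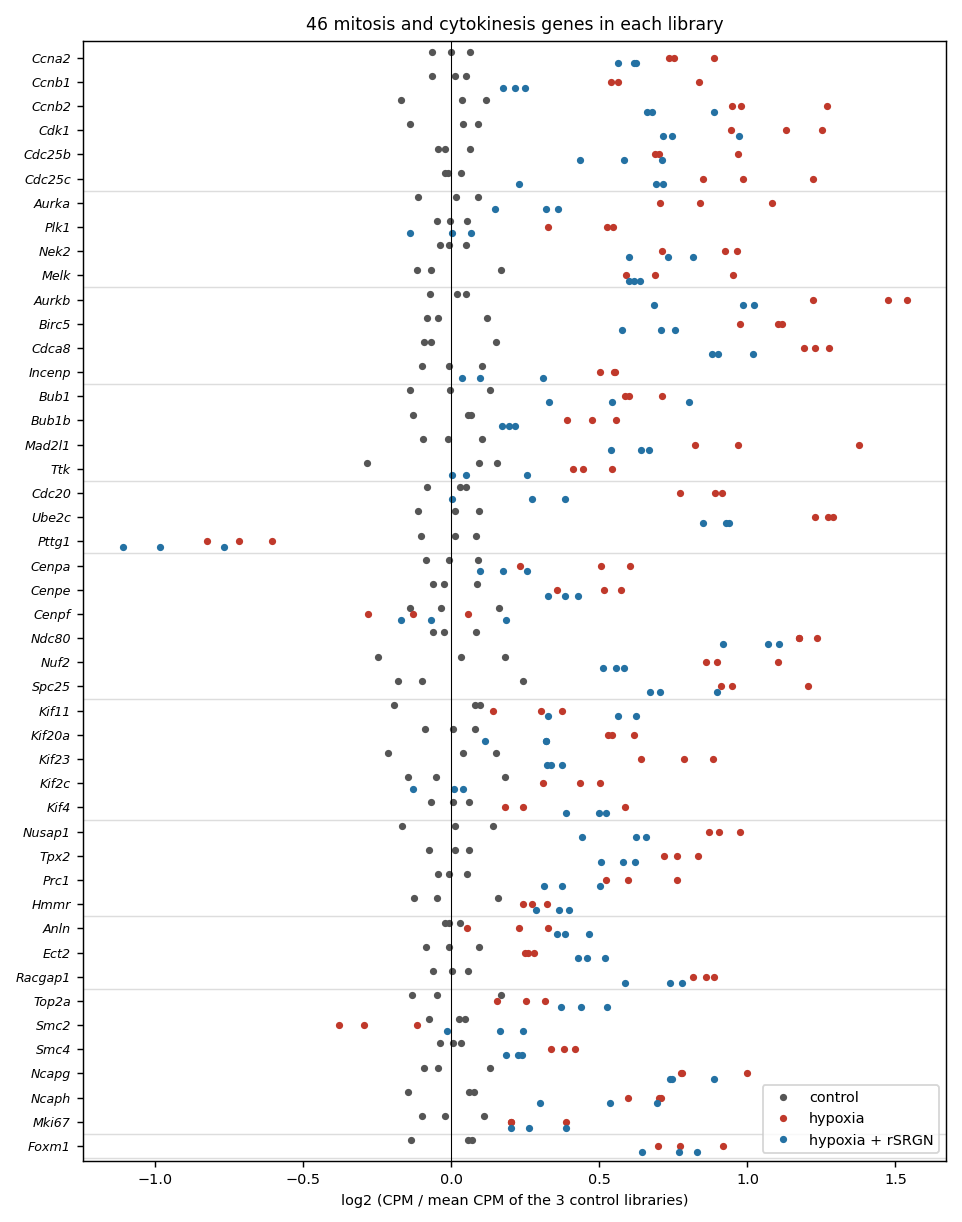
Level of each of the 46 members in each of the 9 libraries as log2 of CPM over the mean CPM of the 3 control libraries, in blocks by role from mitotic entry (top) to Foxm1 (bottom). Hypoxia points lie to the right of control points in 42 rows, Pttg1 lies far to the left, and hypoxia + rSRGN points sit left of the hypoxia points in 26 rows.

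Genes for mitotic entry rose in 6 of 6 cases. This count and the hypoxia counts of the member groups below stand against 26.4% of all tested genes called higher and 25.1% called lower. Cdk1, the kinase that drives mitosis, stood at 46.5, 41.1 and 48.3 CPM in control libraries, at 99.1, 87.2 and 108.0 CPM in hypoxia and at 74.4, 75.9 and 88.8 CPM in hypoxia + rSRGN. All hypoxia values of Cdk1 exceeded all control values, with a log2 fold change of 1.11 ± 0.09 (SE; adjusted p = 3.59e-10). Ccnb2, which encodes a B-type cyclin, measured 23.9, 19.6 and 22.5 CPM in control and 53.0, 42.4 and 43.3 CPM in hypoxia, a log2 fold change of 1.07 ± 0.11 (adjusted p = 9.13e-09). Ccnb1, the other B-type cyclin gene of the list, rose from 35.2, 32.6 and 34.4 CPM to 50.3, 60.9 and 49.5 CPM, with a log2 fold change of 0.65 ± 0.09 (adjusted p = 1.42e-06). Ccna2, the gene of cyclin A, rose from 36.4 to 39.7 CPM in control to 63.4 to 70.3 CPM in hypoxia (log2 fold change 0.79 ± 0.08). The activating phosphatase genes Cdc25b and Cdc25c rose by 0.79 ± 0.11 and 1.03 ± 0.15 on the log2 scale. The kinases that restrain the same step did not move together. Wee1, whose kinase holds Cdk1 inactive and which was named by the rule for pathway genes, fell from 53.7, 47.5 and 49.2 CPM to 18.8, 19.8 and 21.3 CPM, a log2 fold change of -1.33 ± 0.10 (adjusted p = 1.43e-10). Pkmyt1, which encodes the other inhibitory kinase of Cdk1 and was singled out after its values were seen, rose from 10.9, 11.1 and 11.7 CPM to 29.1, 23.98 and 28.1 CPM, a log2 fold change of 1.27 ± 0.11 (adjusted p = 3.64e-10).

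Among the mitotic kinases 3 of 4 rose. Aurka, the centrosomal Aurora kinase, measured 14.3, 13.1 and 15.1 CPM in control and 23.1, 30.1 and 25.4 CPM in hypoxia (log2 fold change 0.89 ± 0.12, adjusted p = 4.65e-07). Nek2, which acts in centrosome separation, and Melk rose by 0.87 ± 0.10 and 0.75 ± 0.12. Plk1, the polo-like kinase that works from entry to cytokinesis, was not called, with a log2 fold change of 0.47 ± 0.10 below the fold limit. The chromosomal passenger complex, which corrects faulty attachments and guides cytokinesis, showed some of the highest values. Its kinase gene Aurkb rose from 13.7, 12.9 and 14.01 CPM to 31.5, 37.6 and 39.3 CPM. That is a log2 fold change of 1.42 ± 0.11 (adjusted p = 2.17e-10), the highest of the 46 members. Cdca8, encoding borealin, and Birc5, encoding survivin, rose by 1.23 ± 0.10 and 1.06 ± 0.10, while Incenp, the scaffold of the same complex, had 0.53 ± 0.09 and was not called.

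In the spindle checkpoint, Mad2l1 rose from 31.7, 27.6 and 29.3 CPM to 52.2, 76.7 and 57.8 CPM (log2 fold change 1.07 ± 0.11, adjusted p = 1.7e-08). Its second hypoxia library stood above the other two. Bub1 rose by 0.63 ± 0.12, and Bub1b and Ttk had 0.48 ± 0.09 and 0.47 ± 0.14 without a call. At the outer kinetochore, where microtubules bind, the 3 members that belong to the Ndc80 complex all rose. Ndc80 itself went from 16, 15.6 and 17.2 CPM to 36.8, 36.8 and 38.3 CPM (log2 fold change 1.20 ± 0.10, adjusted p = 2.12e-10), and Spc25 and Nuf2 had 1.03 ± 0.12 and 0.96 ± 0.11. The other centromere and kinetochore genes were not called. Cenpf, a large kinetochore-associated protein, measured 32.7, 35.1 and 40.2 CPM in control and 37.5, 29.6 and 32.9 CPM in hypoxia, and the groups overlapped (log2 fold change -0.11 ± 0.11, adjusted p = 0.382). Cenpe, a kinetochore motor, and Cenpa, the centromeric histone, had 0.48 ± 0.09 and 0.46 ± 0.10.

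The anaphase genes split in direction. Ube2c, the ubiquitin-conjugating enzyme that serves the APC/C, rose from 28.7, 27.1 and 24.9 CPM to 65.9, 65.1 and 63.1 CPM (log2 fold change 1.26 ± 0.08, adjusted p = 7.13e-12). Of its exon bases 22.8% overlap Tnnc2, a troponin gene, and counting did not use strand. Cdc20, the activator of the APC/C, rose from 32.5, 29.7 and 32.1 CPM to 58.2, 59.2 and 53.7 CPM (log2 fold change 0.86 ± 0.10, adjusted p = 5.22e-08). Pttg1, encoding the securin that the same complex destroys, fell from 38.2, 33.5 and 36.3 CPM to 21.9, 20.3 and 23.7 CPM. Its log2 fold change was -0.71 ± 0.11 (adjusted p = 2.96e-06), the single call in the downward direction among the members.

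**Figure D3:**
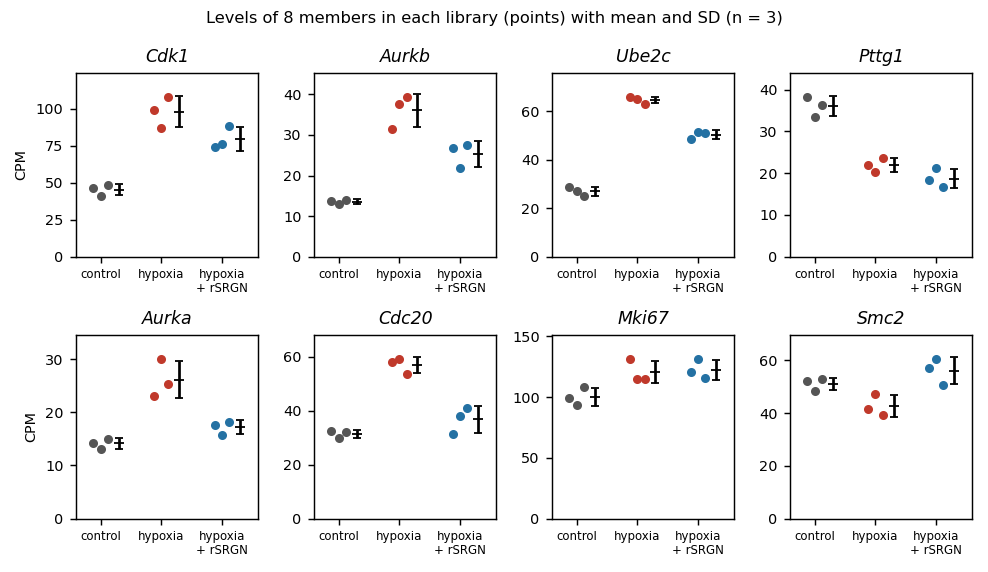
CPM of 8 members in the 3 libraries of each group (points), with the mean and SD (n = 3) as a bar beside them and axes that start at 0. Cdk1, Aurkb and Ube2c are higher in hypoxia than in control, Pttg1 is lower, Aurka and Cdc20 drop again with rSRGN, Mki67 overlaps between the hypoxia groups and Smc2 is lowest in hypoxia.

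Of 5 mitotic kinesins 1 was called higher, against 26.4% of all tested genes, although all 5 had an adjusted p below 0.05 and every hypoxia library above every control library. The called gene was Kif23, which with Racgap1 forms the centralspindlin of the midzone, at a log2 fold change of 0.77 ± 0.10 (adjusted p = 7.78e-07). Kif20a had 0.56 ± 0.09, Kif2c 0.42 ± 0.11, Kif4 0.35 ± 0.11 and Kif11, the motor that pushes spindle poles apart, 0.28 ± 0.10. Of the 4 spindle proteins 3 rose, with 0.92 ± 0.10 for Nusap1, 0.77 ± 0.07 for Tpx2, the activator of Aurora A, and 0.63 ± 0.08 for Prc1, which bundles midzone microtubules, while Hmmr had 0.28 ± 0.09. Prc1 was the called member with the smallest rise and Kif20a the uncalled member nearest to the limit, and these 2 values lay within 1 SE of each other. In cytokinesis, Racgap1 rose from 48.2, 50.03 and 46.04 CPM to 88.8, 84.7 and 87.3 CPM (log2 fold change 0.85 ± 0.08, adjusted p = 1.17e-09). The genes of its partner Ect2, which activates RhoA, and of the ring scaffold Anln had 0.26 ± 0.09 and 0.21 ± 0.08 and were not called.

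Of 6 genes that shape chromosomes 2 were called, both higher (33.3%), against 26.4% of all tested genes called higher and 51.6% called in either direction. Mki67, the proliferation marker that coats mitotic chromosomes, measured 99.0, 93.8 and 108.4 CPM in control and 131.3, 115.3 and 115.3 CPM in hypoxia. Its groups did not overlap, but the log2 fold change of 0.27 ± 0.08 (adjusted p = 0.00524) was below the fold limit. Top2a, the topoisomerase that untangles sister chromatids, overlapped between the groups, with 108.4, 102.2 and 125.9 CPM in control and 139.7, 133.5 and 124.7 CPM in hypoxia (log2 fold change 0.24 ± 0.08, adjusted p = 0.0112). Among condensin members Ncapg and Ncaph rose by 0.86 ± 0.10 and 0.67 ± 0.11. The ATPase subunit genes were not called: Smc4 had 0.38 ± 0.07 (adjusted p = 3.02e-05), with every hypoxia library above every control library, and Smc2 had -0.26 ± 0.09. None of the other 4 non-SMC condensin genes measured, which are no members, was called, with 0.20 ± 0.09 for Ncapg2, -0.02 ± 0.08 for Ncaph2, -0.12 ± 0.07 for Ncapd2 and -0.26 ± 0.10 for Ncapd3. Foxm1, the transcription factor for this gene class, rose from 30.2, 34.5 and 34.8 CPM to 62.7, 53.7 and 56.6 CPM (log2 fold change 0.80 ± 0.09, adjusted p = 5.18e-08).

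**Figure D4:**
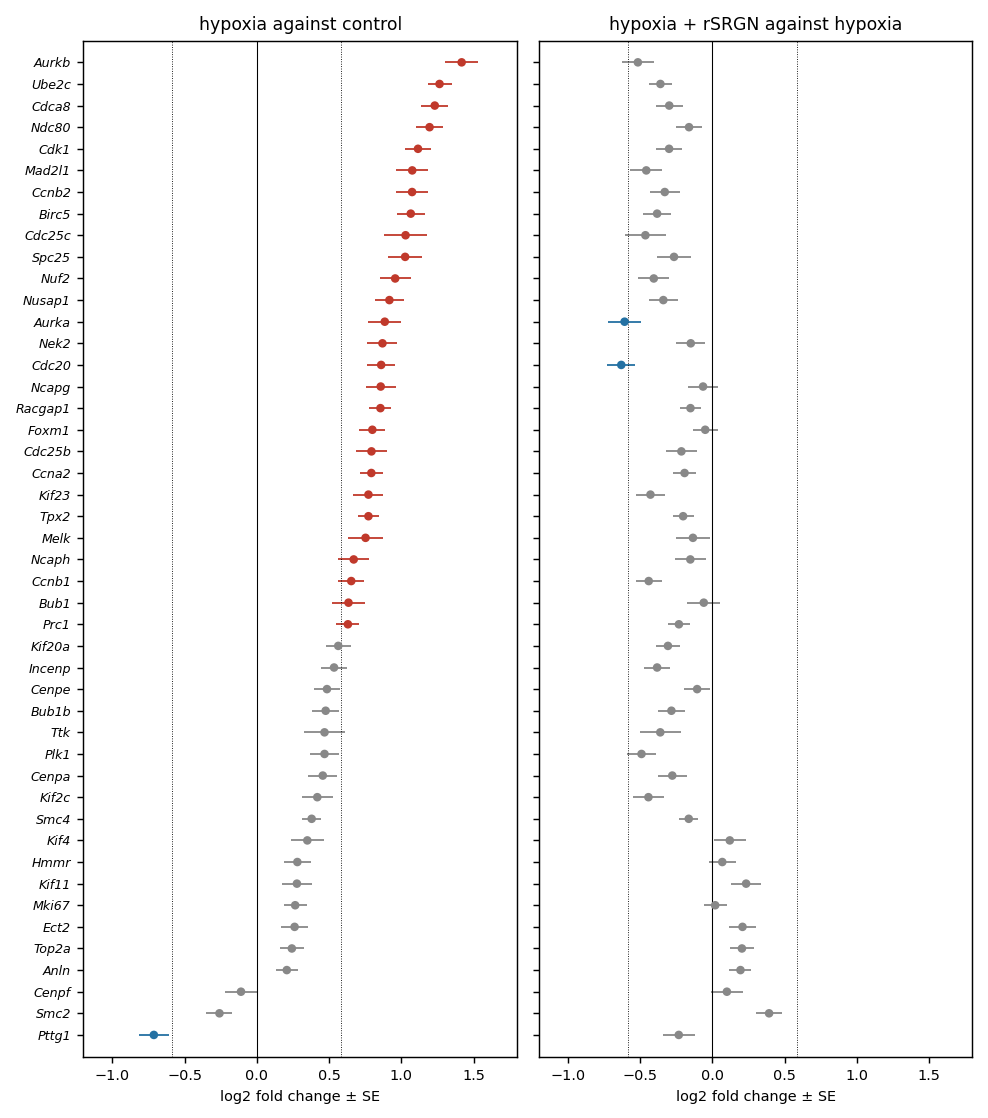
Log2 fold change ± SE of the 46 members for hypoxia against control (left) and hypoxia + rSRGN against hypoxia (right), ordered by the left panel, with dotted lines at a fold change of 1.5 in either direction. Coloured points are called (red higher, blue lower): 28 on the left and 2, Aurka and Cdc20, on the right.

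The call in hypoxia held in each of 16 alternative settings that kept the fold limit for 24 of the 28 called members. The other 4 lay near the limit. Without the second control library, Bub1 was at 0.55 and Ncaph at 0.58 on the log2 scale and neither was called. Without the second hypoxia library, Prc1 was at 0.56 and Ccnb1 at 0.55, again under the limit. Bub1 and Prc1 also missed it, at 0.58 each, when genes with at least 1 count in all were kept. Calls were also gained: Kif20a was called, at 0.59, without the third control library, and Kif20a (0.63) and Incenp (0.60) were called with scaling by library size alone, which gave 29 members called higher.

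The second comparison asked what rSRGN changed under hypoxia. The effect on these genes was small and mostly downward: none of the 46 rose, 2 (Aurka and Cdc20) fell and 44 were not called, against 2.27% of all tested genes called higher, 0.859% called lower and 3.13% called in all. The median log2 fold change was -0.23 for the members and -0.03 for all tested genes, and 37 of the 46 values were below 0. Without the fold limit, the adjusted p was below 0.05 for 20 members with a lower value, against 6.11% of all tested genes, and for 1 member with a higher value, against 10.5% of all tested genes. In 26 members every rSRGN library lay below every hypoxia library, as in 15.5% of all tested genes. In 4 members (Anln, Ect2, Smc2 and Top2a) every rSRGN library lay above, as in 16.5% of all tested genes. The cardiomyocyte markers moved in the same comparison, with 13 of 14 called higher, and their part in the members' values was not tested. Both hypoxia comparisons use the same 3 hypoxia libraries, so a chance deviation of those libraries enters both with opposite sign.

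Cdc20 fell from 58.2, 59.2 and 53.7 CPM in hypoxia to 31.5, 37.9 and 41.0 CPM with rSRGN. No value overlapped, and the log2 fold change was -0.63 ± 0.10 (adjusted p = 0.000215). Against the control libraries of 32.5, 29.7 and 32.1 CPM, the rSRGN libraries had a log2 fold change of 0.23 ± 0.10. The fold limit was missed when the first rSRGN library was left out, at -0.53 (adjusted p = 0.00307). Aurka fell from 23.1, 30.1 and 25.4 CPM to 17.7, 15.7 and 18.2 CPM, again without overlap (log2 fold change -0.61 ± 0.11, adjusted p = 0.0011). It missed the fold limit at -0.50 without the second hypoxia library and at -0.54 without the second rSRGN library. Under the scaling by relative log expression (RLE), and with DESeq2, Aurka was at -0.58 and also below the limit.

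Other members had lower values with rSRGN but did not reach the fold limit. For Aurkb the rSRGN libraries measured 26.8, 21.7 and 27.5 CPM against 31.5, 37.6 and 39.3 CPM in hypoxia, a log2 fold change of -0.52 ± 0.11 (adjusted p = 0.00278), and it was called, at -0.60, when the first hypoxia library was left out. Plk1 measured 25.1, 22.7 and 26.2 CPM against 31.4, 36.0 and 36.5 CPM, with -0.49 ± 0.10 (adjusted p = 0.00179). Control libraries of Plk1 stood at 24.2, 26.0 and 24.9 CPM, so control and rSRGN values overlapped. Cdc25c had -0.46 ± 0.14, Mad2l1 -0.46 ± 0.11, Ccnb1 -0.44 ± 0.09, Kif2c -0.44 ± 0.11, Kif23 -0.43 ± 0.10, Nuf2 -0.41 ± 0.11 and Birc5 -0.38 ± 0.10. All of these values had an adjusted p below 0.05. Within the mitotic entry genes, Ccnb2 and Cdk1 had -0.33 ± 0.11 and -0.30 ± 0.09. Of the passenger complex and the spindle, Incenp had -0.38 ± 0.09, Nusap1 -0.34 ± 0.10, Cdca8 -0.30 ± 0.09, Bub1b -0.28 ± 0.09 and Prc1 -0.23 ± 0.08. Ube2c measured 48.5, 51.5 and 51.2 CPM against 65.9, 65.1 and 63.1 CPM, which is -0.36 ± 0.08 (adjusted p = 0.0042). Kif20a had -0.31 ± 0.09. These too had an adjusted p below 0.05 and stayed inside the fold limit.

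Other members showed no detectable difference between the hypoxia groups. Mki67 measured 120.3, 131.2 and 115.4 CPM with rSRGN against 131.3, 115.3 and 115.3 CPM without it, a log2 fold change of 0.02 ± 0.08 (adjusted p = 0.903). Foxm1 was at 51.8, 56.5 and 59.0 CPM against 62.7, 53.7 and 56.6 CPM, with -0.05 ± 0.09 (adjusted p = 0.766). Ncapg and Bub1 each had -0.06, with SE of 0.10 and 0.11. Smc2 was the single member with a higher value and an adjusted p below 0.05. It stood at 57.3, 60.5 and 50.6 CPM with rSRGN, at 41.7, 47.2 and 39.3 CPM in hypoxia and at 52.1, 48.5 and 52.8 CPM in control. Its log2 fold change of 0.39 ± 0.09 (adjusted p = 0.00485) was below the fold limit. Pttg1, the member that fell in hypoxia, was at 18.2, 21.1 and 16.7 CPM with rSRGN against 21.9, 20.3 and 23.7 CPM, and the groups overlapped (log2 fold change -0.23 ± 0.11, adjusted p = 0.159).

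Values for rSRGN against hypoxia varied with the length of the gene, a property that the choice of members did not use. Cdc20, which spans 4452 bases of the genome, Pttg1 with 6002 bases, Aurkb with 6018 bases and Birc5 with 6493 bases had negative values, as given above. Kif4, the longest at 101478 bases, had 0.12 ± 0.11, Anln with 57177 bases 0.20 ± 0.08, Ect2 with 56657 bases 0.21 ± 0.09 and Smc2 with 49018 bases 0.39 ± 0.09. Melk and Cenpe, with 63800 and 61075 bases, had -0.13 ± 0.12 and -0.10 ± 0.09. Over the 46 genes, log2 fold change and log2 span had a Pearson r of 0.62 and a Spearman rho of 0.59, and with exon length these were 0.54 and 0.54. The same measures over all 16762 tested genes, with span, were 0.23 and 0.32. For hypoxia against control the members had -0.32 and -0.43 with span, and all tested genes -0.22 and -0.22. These 2 comparisons share the hypoxia libraries, which enter them with opposite sign. For hypoxia + rSRGN against control, the members had 0.04 and -0.12 with span, and all tested genes -0.16 and -0.13. Length was not the only property that went with the values. With mean control CPM, the members had -0.43 and -0.47 for hypoxia against control and 0.40 and 0.30 for rSRGN against hypoxia. For hypoxia + rSRGN against control they had -0.25 and -0.34 with it. The control libraries also enter both comparisons against control. These are descriptions across genes that share the same libraries, and genes are not independent replicates.

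The third comparison set hypoxia + rSRGN against control, with control libraries that the first comparison shares. Here 15 of 46 members rose and 1 (Pttg1) fell, against 24.1% of all tested genes called higher, 24.7% called lower and 48.8% in all. The median log2 fold change was 0.49 for the members and 0.01 for all tested genes. Ndc80 had the highest value of the members, at 30.7, 35.1 and 34.2 CPM against 16, 15.6 and 17.2 CPM (log2 fold change 1.03 ± 0.10, adjusted p = 2.75e-09). Cdca8, Ube2c and Aurkb rose by 0.93 ± 0.10, 0.91 ± 0.08 and 0.90 ± 0.12, and Cdk1 by 0.81 ± 0.09. Pttg1 fell to a log2 fold change of -0.94 ± 0.11 (adjusted p = 5.85e-08). Plk1, Kif2c and Cenpf had log2 fold changes of -0.02, -0.02 and -0.01, with adjusted p of 0.85, 0.856 and 0.943. Calls near the fold limit depended on single control libraries, since Ccna2 (0.56), Mad2l1 (0.56) and Melk (0.57) were not called without the second control library, nor was Melk without the first (0.56). Nusap1 (0.64), Bub1 (0.64) and Tpx2 (0.59) were called without the third, and Nuf2 (0.65) and Cdc25b (0.60) without the first. Among the rSRGN libraries, leaving out the first added Bub1 (0.68), Tpx2 (0.60) and Cdc25c (0.70), leaving out the second added Ncaph (0.62) and Cdc25b (0.65), and leaving out the third added Nusap1 (0.64), Bub1 (0.59) and Kif11 (0.59).

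Other genes of the pathway were taken from lists made with earlier results of these data known. Of 70 further genes whose transcripts cycle with mitosis, 41 rose and none fell in hypoxia (median log2 fold change 0.67), against 26.4% of all tested genes called higher and 25.1% called lower. Ska1, a kinetochore protein that follows microtubule ends, rose most, from 3.4, 3.5 and 4.6 CPM to 30.1, 22.2 and 23.2 CPM (log2 fold change 2.71 ± 0.15, adjusted p = 4.05e-13). Hmgb2, a chromatin protein, and Cenpk, of the inner kinetochore, rose by 1.79 ± 0.08 and 1.75 ± 0.19. Under rSRGN against hypoxia none of the 70 rose and 3 fell, against 2.27% and 0.859% of all tested genes, with a median of -0.27. Those 3 were Depdc1b at -0.92 ± 0.28, Troap, a spindle protein also called tastin, at -0.72 ± 0.13, and Cenpp, of the inner kinetochore, at -0.71 ± 0.22. Troap measured 17.4, 17.3 and 15.7 CPM in hypoxia and 9.1, 9.8 and 11.5 CPM with rSRGN (adjusted p = 0.000585), whereas all values of Depdc1b were below 5 CPM.

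The list counts that follow stand against the same shares of all tested genes, and several are near or under these shares. DNA replication and S-phase genes act before mitosis. Of 37 such genes 24 rose and none fell in hypoxia (median 0.79), and none was called with rSRGN (median -0.19). Their summed level was 965.2 to 1020 CPM in control, 1579 to 1717 CPM in hypoxia and 1421 to 1539 CPM with rSRGN. The subunits of the APC/C with its activator Cdh1, which are present through much of the cycle, had 2 of 15 higher and 1 lower in hypoxia (median -0.06), and none called with rSRGN (median -0.15). Cohesin, the ring that securin protects from cleavage, and its regulators had 0 of 10 genes higher and 2 lower (median -0.39), and none called with rSRGN (median 0.23). The 2 lower genes were Stag2, a subunit of the ring complex, at -0.66 ± 0.08 and the regulator Pds5b at -0.63 ± 0.10, while the core ring genes Smc1a, Smc3 and Rad21 had -0.02, -0.08 and -0.56 and were not called. Rad21 missed only the fold limit (adjusted p = 1.72e-06), with every hypoxia library below every control library. Without the fold limit, 8 of the 10 genes were lower in hypoxia, against 34.1% of all tested genes. For the MuvB core and its DREAM partners, 3 of 11 rose, a share near that of all tested genes, and 1 fell (median 0.08), and none was called with rSRGN (median 0.03). The gene that fell there was Rbl2, the pocket protein that joins MuvB in resting cells, at a log2 fold change of -1.23 ± 0.11 (adjusted p = 2.54e-09). Among Wee1 and 4 genes of the phosphatase that opposes Cdk1 and of its inhibitors, Wee1 was the single call in hypoxia (median -0.03), and none was called with rSRGN (median 0.03). Of 3 NF-Y subunit genes, Nfyc fell from 66.2, 67.2 and 61.8 CPM to 34.3, 31.5 and 33.9 CPM (log2 fold change -0.97 ± 0.09, adjusted p = 1.46e-09). The other two were not called (list median 0.18), and no NF-Y gene was called with rSRGN (median -0.08).

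**Figure D5:**
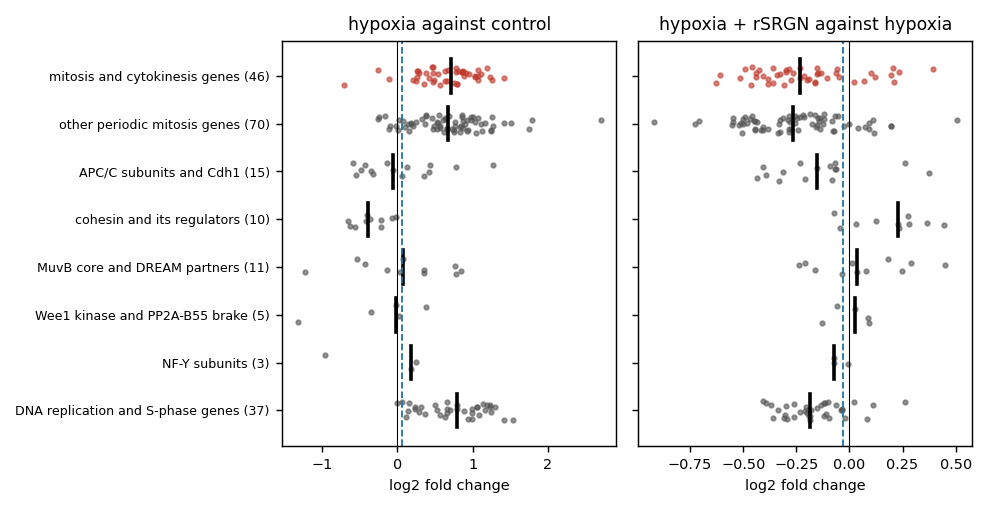
Log2 fold change of each gene (points) and list median (black bars) for the 46 members and 7 further lists, for hypoxia against control (left) and hypoxia + rSRGN against hypoxia (right), with the number of genes in brackets and the median of all tested genes as a dashed line. The members, the other periodic genes and the S-phase genes sit to the right in hypoxia, with medians of 0.71, 0.67 and 0.79, while cohesin sits to the left at -0.39.

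Some exon bases of 15 members overlap another gene, so a read there can belong to either gene, and in 7 this touches over 10% of the exon bases. These are Kif20a (29.3%, with Cdc23), Ube2c (22.8%, with Tnnc2), Kif4 (15.1%, with Pdzd11), Ncapg (13.4%, with Lcorl), Cdc25c (12.7%, with Gm3550), Ccna2 (12.5%, with Exosc9) and Prc1 (11.1%, with Rccd1). Counting without strand cannot tell such reads apart. Whether they were counted for the member or left out was not checked, and the part of the overlap in the values was not tested.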

How the data were processed

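The authors deposited 1 table of raw counts, made per its header with featureCounts v2.0.1 on paired fragments over exons of GENCODE release M25 genes (mm10), with no strand option. HISAT2 is named in the submitters' notes, with its version not given in the sources used here. The libraries were poly(A)-enriched and groups were taken from the labels; all 9 count columns were matched to samples. Counts were tested with edgeR 4.0.16 (R 4.3.3): filterByExpr, TMM, glmQLFit and glmQLFTest with all 9 libraries and group as the single term, adjusted by Benjamini-Hochberg over 16762 genes, and called at adjusted p below 0.05 with a fold change of at least 1.5. SE is the log2 fold change divided by the square root of F. Alternatives were DESeq2 1.42.0, RLE or no scaling, other count filters, fewer groups, no fold limit, a replicate block and each library left out. The members and lists were chosen with earlier results of these data known. Named were all members and, from the pathway lists, the 3 called genes with the largest rise and fall in each hypoxia comparison among those of at least 1 CPM. Pkmyt1, Ncapg2, Ncaph2, Ncapd2, Ncapd3, Stag2, Pds5b, Smc1a, Smc3 and Rad21 were named outside this rule. The scripts were tested on simulated data. At these depths every member had at least 138 counts in each library, which limits precision most for Cdc25c.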

Additional observations from a re-analysis of the deposited data

How the results depend on the processing

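Directions of the called members did not change in any of 17 alternatives. Alone among these, the fold limit moved member counts in hypoxia against control by over 1.5 times. All 46 calls in hypoxia against control were the same with DESeq2, RLE scaling, counts of at least 10 in every library and the 2 groups alone. Without the fold limit, 43 members were higher and 2 lower there (45 called), 37 were higher in hypoxia + rSRGN against control (38 called), and 20 were lower and 1 higher under rSRGN against hypoxia (21 called, with 2790 genes over all). With DESeq2 or RLE scaling, 1 member was lower under rSRGN, Cdc20. The median of the members in hypoxia against control was 0.782 with library size alone and 0.658 with at least 1 count in all. Leaving out 1 library at a time, this median ranged from 0.627 (without the second control) to 0.737, and that against control with rSRGN from 0.436 (without the second control) to 0.536. Under rSRGN against hypoxia, 1 to 3 members were called lower, and 321 (without the third hypoxia library) to 699 (without the second) genes over all. The cause of these shifts was not tested. Depth limits the lowest members most, with 138 counts at the least.

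The values that changed sign, 9 in all, were near 0 and not called. Under rSRGN against hypoxia, Mki67 was at -0.002 with library size alone, and without 1 library ranged from -0.032 to 0.087, with -0.010 in other cases. The ranges were -0.007 to 0.195 for Cenpf, -0.190 to 0.047 for Bub1, -0.114 to 0.015 for Ncapg and -0.095 to 0.017 for Foxm1. With rSRGN against control, library size alone gave 0.038 for Cenpf, 0.025 for Kif2c and 0.025 for Plk1, and the 2 groups alone 0.009 for Cenpf. The ranges were -0.121 to 0.069 for Cenpf, -0.101 to 0.067 for Kif2c, -0.073 to 0.035 for Plk1 and -0.028 to 0.183 for Ttk.

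Replicate numbers did not pair the libraries: correlations of the deviations of same-numbered libraries ran from -0.0374 to 0.0215. A fit with the replicate block left all 46 member calls the same in each comparison, and called 8550, 495 and 8096 genes over all, in place of 8644, 525 and 8183.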
